A study of Mus musculus with 6 samples.

Results

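The RNA levels of 40 imprinted protein-coding genes were compared between mouse embryonic stem cells before and after the deletion of Ezh2 was induced. The genes were listed by name as genes known to be imprinted in the mouse, by a rule that uses no measured value. Earlier results of these data were known when the list was chosen. The table holds 22933 genes, and 39 of the 40 were found in it by Ensembl identifier. The identifier of Snrpn was not matched, and Snrpn was not analysed here.

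An imprinted gene is transcribed mainly from the copy inherited from 1 parent. At most imprinted loci the parental copies are told apart by DNA methylation that was set in the egg or the sperm and kept through the early embryo by proteins that bind the methylated copy. A smaller set, among them Sfmbt2, Gab1, Slc38a4, Smoc1 and Jade1, is reported to be marked on the maternal copy in early embryos. That mark is trimethylation of histone H3 at lysine 27 (H3K27me3), which Ezh2 and its partners in Polycomb repressive complex 2 deposit. Whether the stem cells used here carry it at these genes was not measured. Many imprinted genes control the growth of the embryo and placenta. The table has 1 value per gene and library, so the maternal and paternal copies could not be told apart, and nothing here measures imprinting itself.

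All cells were a mouse embryonic stem cell line with both Ezh2 alleles floxed (Ezh2 fl/fl), grown on gelatin in serum with leukaemia inhibitory factor. The untreated group was 3 libraries labelled Ezh2 wild type with no tamoxifen. The tamoxifen group was 3 libraries labelled Ezh2 KO, from cells given 800 nM 4-hydroxytamoxifen for 96 h, with RNA taken at day 4. Whether day 4 counts from the start or the end of the 96 h is not settled by the sample labels. The source of the recombinase, the number of cell clones and whether replicates were separate cultures were not stated. No group received the drug with Ezh2 intact, so the drug and the deletion cannot be told apart. If the replicates were not separate cultures, each p-value measures only technical spread.

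Each library had 2334418 to 5689696 reads, recovered from its deposited values, and between 10123 and 12686 genes reached 10 reads. The share of reads taken by its 10 most abundant genes ran from 20.2% to 36.7%. Ezh2 itself stood at 4165, 3620 and 3483 without tamoxifen and 2258, 2559 and 2609 with it. Its groups did not overlap, and its log2 fold change was -0.60 ± 0.13 (SE), which limma did not call (adjusted p 0.157). The size of this drop depended on the scale. It was -0.40 on scaled reads (limma adjusted p 0.64) and -0.13 on RPM (limma adjusted p 0.99), where the median of all genes was 0.25. For Ezh2 alone the two-sided exact permutation p was 0.1, and no smaller value can be reached with 3 libraries in each group. Markers of the stem cell state were present, all 12 of 12 listed being tested and 0 called, with a median log2 fold change of -0.02. Of them Nanog (0.57) and Tfcp2l1 (0.70) were higher without overlap and Zfp42 (-0.26) lower, names chosen after their values were seen. Over all genes tested, 9.49% were higher without overlap and 8.89% lower. On scaled reads Nanog stood at 0.35, Tfcp2l1 at 0.59 and Zfp42 at -0.22. A bulk level cannot tell fewer cells of a type from less RNA per cell.

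The imprinted genes spanned a wide range of levels. Levels between genes were compared as RPKM computed from the recovered reads, that is, relative to exon length and to the reads of the library. In untreated cells 19 of the 39 genes had a mean of at least 1 on this scale, and 20 had less. Nap1l4, a histone chaperone gene, was the most abundant at 72.3 ± 7.94 (SD, n = 3). Below it came Cd81 (36.1 ± 6.16), Slc38a4 (35.9 ± 17.8), Grb10 (35.2 ± 13.9), Gab1 (31.2 ± 8.83), Phlda2 (29.9 ± 11.3) and Jade1 (27.9 ± 9.8). Each of these 6 differed from the next by less than the larger of their SDs, so their order is not resolved. Igf2r (13.3 ± 4.36), Kcnq1 (11.6 ± 4.71), Mest (9.01 ± 2.07), Peg3 (7.81 ± 4.01), Sfmbt2 (7.59 ± 1.26) and Cdkn1c (7.15 ± 2.07) formed the next tier, again with steps smaller than the larger SD of each pair. Igf2 stood far lower, at 0.451 ± 0.319, and Plagl1 at 0.106 ± 0.0233. Magel2 had 0 reads in all 6 libraries, which allows a level of up to 0.128 RPM over them together (a limit of 3 reads, for counting error only).

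**Figure D1:**
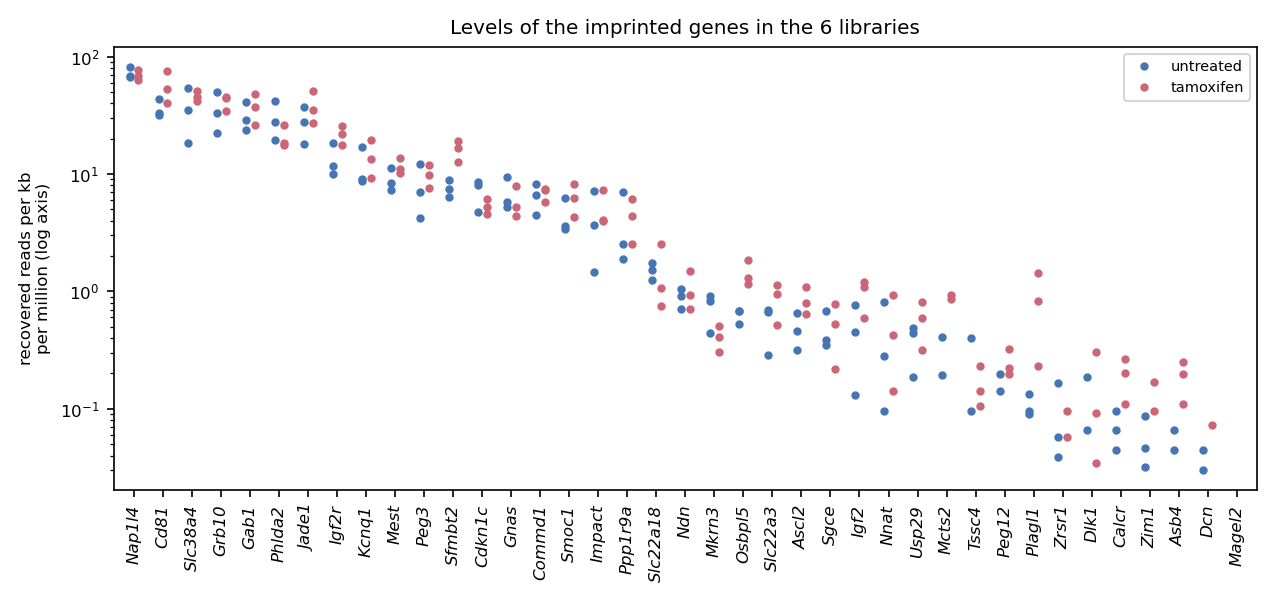
RPKM from recovered reads (log axis) of the 39 imprinted genes, ordered by their untreated mean, with 1 point per library and libraries at 0 reads not drawn. Nap1l4 has the highest untreated mean (72.3), Igf2 lies near 0.451 and Magel2 has no point.

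None of the imprinted genes was called. Differences are given as tamoxifen minus untreated on the log2(deposited value + 1) scale. The added 1 reduces differences between small deposited values. This does not make the differences of genes with few reads conservative. Beside scaled reads (defined below) they were larger for Slc22a18 (-1.0038 against -0.46), Sgce (-0.64 against -0.28) and Osbpl5 (1.05 against 0.87). They were smaller for Plagl1 (2.01 against 2.19) and Usp29 (0.15 against 0.35). The limma fit covered the 11841 genes that averaged 10 or more recovered reads a library, and calls were made at an adjusted p (Benjamini-Hochberg) under 0.05. Of the 39 imprinted genes 26 passed that filter, and limma called 0 of them, where it called 0.127% of all genes (0.11% higher and 0.0169% lower). At an unadjusted p under 0.05 there were 7, of which 6 were higher and 1 lower, against 6.85% of all genes higher and 5.12% lower. A limma test of scaled reads, which are recovered reads divided by each library's median ratio over genes, also called 0, with 6 at an unadjusted p under 0.05, where it called 0.0422% of all genes and put 8.89% under 0.05 before adjustment.

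Of the 26, 14 lay above 0 and 12 below, with a median log2 fold change of 0.08, beside 48.3% above 0 and a median of -0.01 for all genes tested. In 6 genes all 3 tamoxifen values lay above the untreated ones (Sfmbt2, Cd81, Plagl1, Osbpl5, Igf2r and Igf2), which is 23.1% of the members against 9.49% of all genes. In 2 genes (Phlda2 and Cdkn1c) they lay below, 7.69% against 8.89%. On scaled reads 4 of these 6 (Sfmbt2, Plagl1, Osbpl5 and Igf2r) and both of the lower genes were again without overlap, beside 7.3% of all genes higher and 7.69% lower. On both scales at once, 5.41% of all genes were higher without overlap and 4.7% lower. The fitted 95% intervals lay wholly between -1 and 1 in 14 of the 26 genes, and 12 reached past a 2-fold change.

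**Figure D2:**
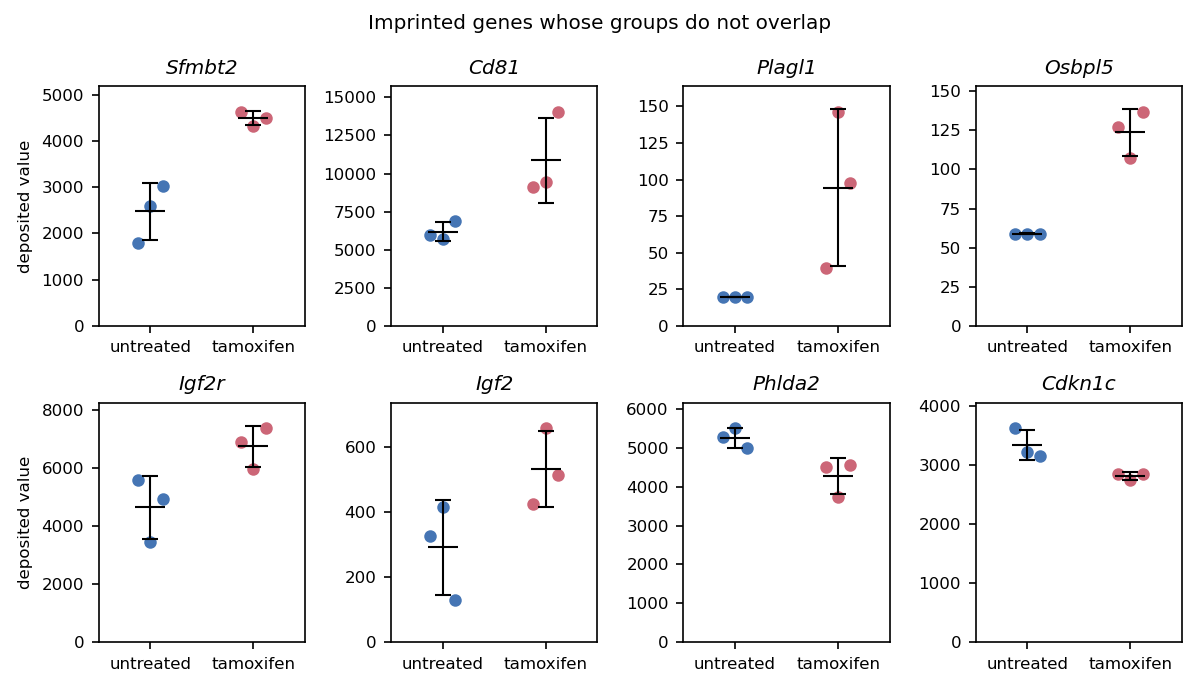
Deposited values of the 8 tested imprinted genes whose groups do not overlap, with 1 point per library and the mean ± SD of 3 libraries in black. The first 6 panels are higher after tamoxifen, and Phlda2 and Cdkn1c are lower.

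Markers of primitive and visceral endoderm were higher in the tamoxifen libraries, though limma called 0. All 14 tested of 19 listed lay above 0 (median 1.27), 12 of them without overlap (9.49% of all genes) and 12 at an unadjusted p under 0.05 (6.85% of all genes higher). Summed over the list they took 688 to 1289 RPM in the untreated and 1732 to 2472 in the tamoxifen libraries. Lamc1 (mean RPM 287 untreated and 486 tamoxifen), Lama1 (185 and 491), Lamb1 (177 and 369) and Sparc (127 and 212) made up most of this sum. The transcription factor genes Gata4 (8.96 and 26.3) and Gata6 (6.13 and 16.6) added little to it. Afp was lower, on few reads. The 13 trophoblast markers took 54.9 to 109 against 140 to 166, with Tpbpa and Prl3d1 at 0 in all libraries, and the 12 fibroblast markers 332 to 495 against 571 to 846, with Lum at 0. Fn1 (mean RPM 296 untreated and 522 tamoxifen) and Vim (93.9 and 131) made up most of the fibroblast sum. Thy1 and Col3a1 were lower, on few reads. Krt18 (28.5 and 61.2), Tfap2c (26.5 and 46) and Krt8 (15.7 and 27.3) made up most of the trophoblast sum. Of 6 tested in each list, 1 fibroblast and 3 trophoblast markers were higher without overlap (9.49% of all genes). The 8 neural markers found took 14.9 to 36.6 against 24.2 to 35.1. The part of these cell types in the levels of Plagl1, Igf2, Igf2r, Sfmbt2, Cd81 and Osbpl5 was not tested.

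Among the 5 members imprinted through H3K27me3, Sfmbt2 had the largest log2 fold change. Sfmbt2 (ENSMUSG00000061186, chromosome 2, 10370510 to 10595253 on GRCm38) encodes a Polycomb group protein needed in the trophoblast. Its values were 1801, 2589 and 3035 without tamoxifen and 4632, 4330 and 4496 with it. Every tamoxifen library was above every untreated one, and the tamoxifen libraries lay close together. The means were 2475 ± 625 untreated and 4486 ± 151 tamoxifen (SD, n = 3 each). The log2 fold change was 0.89 ± 0.20 (SE; 95% interval 0.44 to 1.35; limma adjusted p 0.157), or 1.85-fold. On scaled reads the levels were 265, 261 and 321 against 499, 503 and 478, again without overlap, with a log2 fold change of 0.81.

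The other 4 stood closer to 0. Jade1, a subunit gene of a histone acetyltransferase complex, had 10228, 8564 and 8436 without tamoxifen and 10228, 20591 and 10228 with it. The 3 values near 10228 share a normalized count m of 1051 in the deposited form, on 1232, 893 and 1532 reads, since the sorted m of the libraries are nearly the same set of numbers. The Jade1 log2 fold change of 0.51 rested on tamoxifen replicate 2, and was 0.18 without it and 0.19 on scaled reads. The amino acid transporter gene Slc38a4 (0.26, 95% interval -0.22 to 0.75, and 0.0333 without untreated replicate 3) and Smoc1, which encodes a secreted matrix protein (0.12, -0.40 to 0.65), had overlapping groups. Gab1, an adaptor in growth factor signalling, had 5528, 5499 and 5498 without tamoxifen and 4778, 5722 and 5450 with it. The Gab1 groups overlapped, and its log2 fold change of -0.06 had an interval from -0.34 to 0.23.

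A further 16 genes reported to carry maternal H3K27me3 imprints in early embryos were read from the same fit. Of these 12 passed the filter, 0 were called by limma and 9 lay above 0, with a median of 0.43. At an unadjusted p under 0.05 there were 4 higher and 0 lower, where 6.85% of all genes were higher and 5.12% lower, and the same 4 had groups without overlap (9.49% of all genes higher). The summed endoderm markers were higher in the same libraries (688 to 1289 against 1732 to 2472 RPM), and their part was not tested. The 4 genes were Rbms1 (1.05), which encodes an RNA-binding protein, the chromatin-associated gene Bbx (0.70), the transcription factor Runx1 (1.59) and the corepressor Tle3 (0.52). Rbms1 had 760, 565 and 564 without tamoxifen and 1168, 1324 and 1402 with it, with a limma adjusted p of 0.0869. Its tamoxifen values all lay well above the untreated ones.

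**Figure D3:**
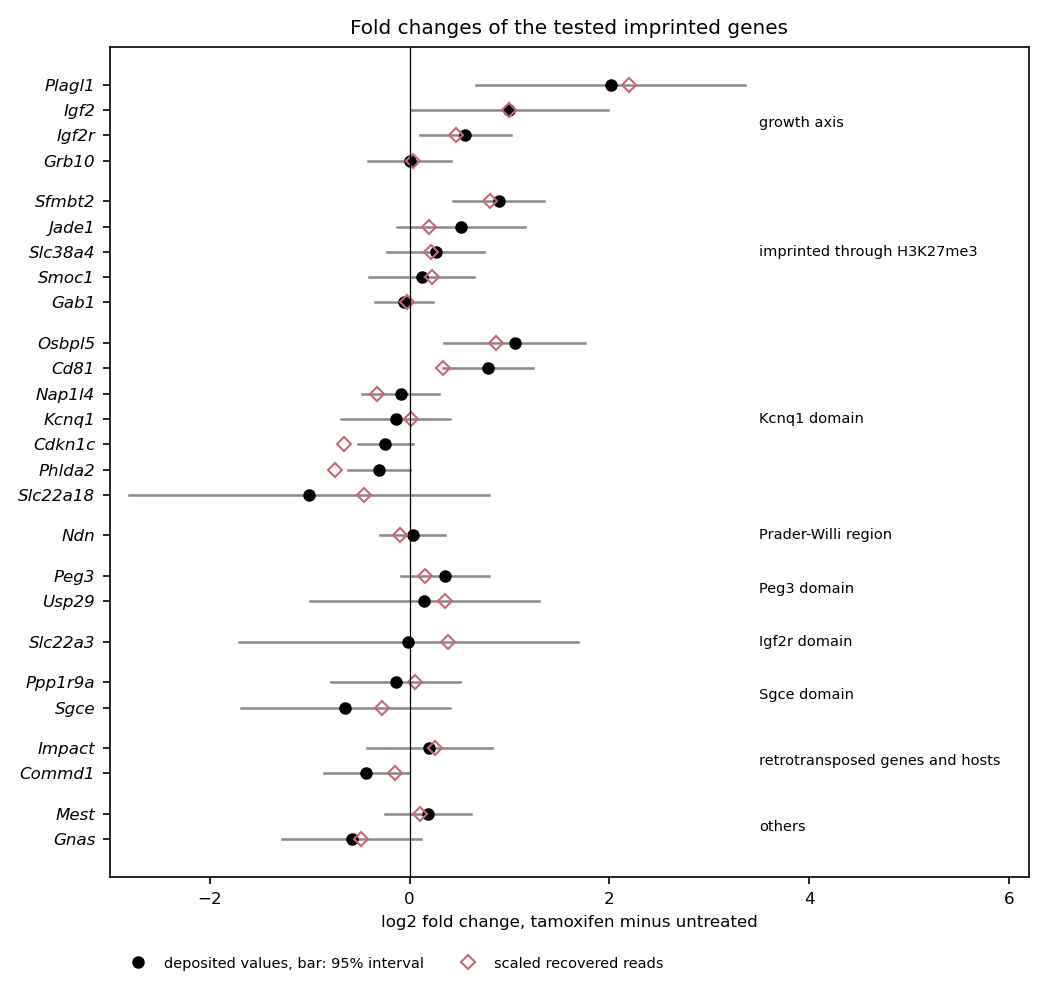
Log2 fold changes (tamoxifen minus untreated) of the 26 tested imprinted genes by locus or kind, with 95% intervals as bars, and those of scaled recovered reads as open diamonds. Plagl1 lies farthest to the right at 2.01 and Slc22a18 farthest to the left at -1.0038, with an interval that spans 0 and a value of -0.0853 without tamoxifen replicate 2.

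In the growth axis 3 of 4 tested genes, Plagl1, Igf2 and Igf2r, were higher without overlap, against 9.49% of all genes, and Grb10 had overlapping groups. Gab1, also planned for this group, was counted with the H3K27me3 genes instead, and its groups overlapped. The Kcnq1 domain genes Phlda2 and Cdkn1c, lower without overlap, were not in this group. On scaled reads 2 of the 4 genes in it, Plagl1 and Igf2r, were without overlap, against 7.3%. The endoderm markers, whose sum was also higher in every tamoxifen library (688 to 1289 against 1732 to 2472 RPM), are given beside these genes, and their part was not tested. Plagl1 (ENSMUSG00000019817, chromosome 10, 13060504 to 13131694) encodes a zinc finger transcription factor that restrains proliferation. Its values were 19.9, 19.9 and 19.5 without tamoxifen and 39.3, 146 and 98 with it, on 4, 4 and 2 untreated and 7, 26 and 33 tamoxifen reads. The untreated values are nearly equal because all 3 share a normalized count m of 2. The tamoxifen libraries differed widely, with replicate 1 much nearer the untreated level than the others. This gave a log2 fold change of 2.01 ± 0.58 (SE; 95% interval 0.66 to 3.36; limma adjusted p 0.249), and 2.19 on scaled reads.

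Igf2 (ENSMUSG00000048583, chromosome 7, 142650766 to 142666816), the insulin-like growth factor of the fetus, had 329, 418 and 131 without tamoxifen and 426, 659 and 515 with it. The groups did not overlap, but tamoxifen replicate 1 and untreated replicate 2 were almost level. These values rest on 10, 25 and 2 untreated and 13, 16 and 32 tamoxifen reads, and on scaled reads (8.43, 16.9 and 4.09 against 14.6, 19.9 and 19.5) the groups overlapped. Its log2 fold change was 0.9998 ± 0.42 (SE; 95% interval 0.02 to 1.98; limma adjusted p 0.405). Without untreated replicate 3, which had 2 reads, it was 0.50. Exons of Igf2 overlap the opposite-strand gene Igf2os and the same-strand gene Gm49394, and whether strand was used in counting is not stated.

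Igf2r (ENSMUSG00000023830, chromosome 17, 12682406 to 12769664), whose receptor carries IGF2 to the lysosome for breakdown, had 5576, 3465 and 4923 without tamoxifen and 6909, 5975 and 7367 with it. The groups did not overlap there or on scaled reads (552, 424 and 508 against 707, 590 and 746). Its difference was 0.56 ± 0.20 (SE; 95% interval 0.10 to 1.01; limma adjusted p 0.327) on the log2 scale, 0.46 on scaled reads, and 0.36 without untreated replicate 2. Its neighbour Slc22a3, a cation transporter gene of the same domain, had 5, 18 and 8 untreated and 9, 10 and 26 tamoxifen reads, and its groups overlapped. Grb10, an adaptor that dampens insulin and growth factor receptors, had 12087, 9265 and 7979 without tamoxifen and 8681, 9877 and 10413 with it, and its log2 fold change of -0.00037 had a 95% interval from -0.42 to 0.42. Dlk1, a Notch ligand homologue, had 0, 6 and 1 untreated and 2, 4 and 1 tamoxifen reads.

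The Kcnq1 domain on distal chromosome 7, a cluster listed here as expressed from the maternal copy, held genes with differences in both directions. Cd81 and Osbpl5, toward its ends, were higher, and Phlda2 and Cdkn1c, in its middle, were lower. Cd81 (ENSMUSG00000037706, chromosome 7, 143052739 to 143067934), which encodes a membrane protein of the tetraspanin family, had 5974, 5683 and 6908 without tamoxifen and 9108, 9418 and 14062 with it. The groups did not overlap, at a log2 fold change of 0.79 ± 0.19 (SE; 95% interval 0.34 to 1.24; limma adjusted p 0.195). On scaled reads the Cd81 levels were 310, 480 and 506 against 501, 444 and 677, where the groups overlapped and the log2 fold change was 0.33. Osbpl5 (ENSMUSG00000037606, chromosome 7, 143688762 to 143756985), a lipid transfer protein gene, had 58.9, 59.1 and 58.5 without tamoxifen and 127, 107 and 137 with it, on 13, 19 and 7 untreated and 22, 15 and 47 tamoxifen reads. The untreated values share an m of 6 and lie closer together than the reads. Its log2 fold change was 1.05 ± 0.30 (SE; 95% interval 0.35 to 1.76; limma adjusted p 0.249), with no overlap on scaled reads either (11, 12.9 and 14.3 against 24.7, 18.7 and 28.6).

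Phlda2 (ENSMUSG00000010760, chromosome 7, 143501545 to 143503150), a gene that restrains placental growth, had 5271, 5497 and 4985 without tamoxifen and 4510, 3730 and 4543 with it. Every tamoxifen value was below every untreated one. The fitted difference was -0.31 ± 0.13 (SE; 95% interval -0.61 to 0.00; limma adjusted p 0.418) on the log2 scale. The difference was larger on scaled reads, at -0.75 (102, 182 and 121 against 85.3, 59.7 and 92). Cdkn1c (ENSMUSG00000037664, chromosome 7, 143458339 to 143461050), an inhibitor of cyclin-dependent kinases, had 3625, 3229 and 3161 without tamoxifen and 2854, 2744 and 2858 with it. The log2 fold change was -0.24 ± 0.12 (SE; 95% interval -0.52 to 0.04; limma adjusted p 0.476), and -0.65 on scaled reads (53.9, 67.1 and 53.2 against 40.4, 31.1 and 39), without overlap on either scale.

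Cd81 shares exon sequence with R74862 and Cdkn1c with Gm44732 on GRCm38, and reads there could have been counted for either gene. The tested genes between and around them had overlapping groups. Kcnq1, the potassium channel gene that hosts an antisense transcript on its opposite strand, had 1966, 1139 and 1595 without tamoxifen and 1285, 1723 and 1207 with it, a log2 fold change of -0.14 (-0.68 to 0.40). Nap1l4 stood at -0.09 (-0.47 to 0.29), and the transporter gene Slc22a18 at -1.0038 (-2.81 to 0.80) on 10, 12 and 8 untreated and 7, 3 and 22 tamoxifen reads. The Slc22a18 value rested on tamoxifen replicate 2, with 3 reads, and was -0.0853 without it and -0.46 on scaled reads. The trophoblast transcription factor gene Ascl2 had 2, 6 and 2 untreated and 4, 3 and 9 tamoxifen reads, with deposited values of 705, 1054 and 807 without tamoxifen and 1055, 1131 and 1281 with it, and Tssc4 had 0, 1 and 2 untreated and 1, 1 and 1 tamoxifen reads. Both were too sparse to test, although the deposited values of Ascl2 did not overlap between the groups.

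**Figure D4:**
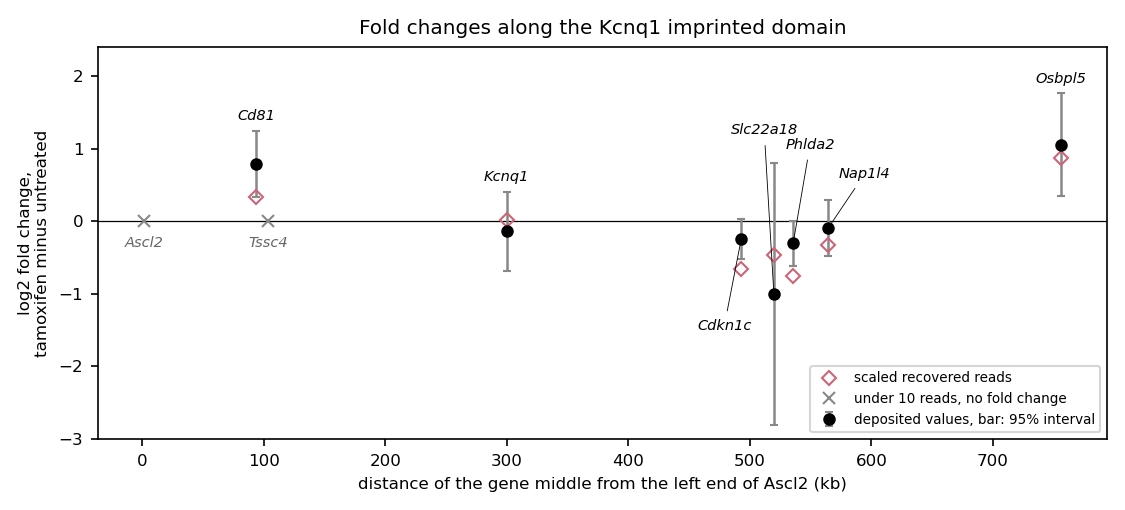
Log2 fold changes along the Kcnq1 imprinted domain against the distance of each gene's middle from the left end of Ascl2 (kb), with 95% intervals, scaled reads as open diamonds and untested genes as crosses. Cd81 (0.79) and Osbpl5 (1.05) lie above 0, with Cdkn1c (-0.24) and Phlda2 (-0.31) between them.

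The promoters of the 4 imprinted genes of smallest p are shown because imprinted and Polycomb-bound promoters are often rich in CpG, the dinucleotide that carries DNA methylation. Each line gives the 250 bases before the start site from RefSeq (GRCm38.p6), 5′ to 3′ on the strand of the gene, with every CG in capitals. Sfmbt2 is at chr2:10370201-10370450, Cd81 at chr7:143052500-143052749 and Plagl1 at chr10:13090582-13090831, all on the plus strand, and Osbpl5 at chr7:143757009-143757258 on the minus strand. The Plagl1 start listed lies 30328 bases inside the GENCODE gene.
Sfmbt2 promoter: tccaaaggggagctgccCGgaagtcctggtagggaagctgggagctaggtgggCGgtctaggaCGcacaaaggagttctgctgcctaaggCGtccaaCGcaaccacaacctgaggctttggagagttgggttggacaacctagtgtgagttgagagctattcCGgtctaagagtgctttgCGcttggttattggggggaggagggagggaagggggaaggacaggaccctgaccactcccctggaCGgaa
Cd81 promoter: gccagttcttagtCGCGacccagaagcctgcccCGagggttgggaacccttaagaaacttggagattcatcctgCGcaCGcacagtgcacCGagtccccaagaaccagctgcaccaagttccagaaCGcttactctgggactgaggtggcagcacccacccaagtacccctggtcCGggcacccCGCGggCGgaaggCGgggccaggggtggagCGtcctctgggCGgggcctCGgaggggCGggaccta
Plagl1 promoter: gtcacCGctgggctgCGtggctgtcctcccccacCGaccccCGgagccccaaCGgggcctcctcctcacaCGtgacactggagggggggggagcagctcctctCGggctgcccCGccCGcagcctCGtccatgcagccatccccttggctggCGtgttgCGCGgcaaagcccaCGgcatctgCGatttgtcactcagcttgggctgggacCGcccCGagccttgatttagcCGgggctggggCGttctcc
Osbpl5 promoter: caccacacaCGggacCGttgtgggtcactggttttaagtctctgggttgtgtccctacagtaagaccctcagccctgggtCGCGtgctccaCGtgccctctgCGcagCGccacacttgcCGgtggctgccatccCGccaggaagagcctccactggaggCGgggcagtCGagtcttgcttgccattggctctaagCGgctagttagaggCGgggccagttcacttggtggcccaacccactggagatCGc
With the 50 bases after the start included, CG occurred 9 times in the Sfmbt2 window, 23 times in that of Cd81, 26 in that of Plagl1 and 16 in that of Osbpl5. Among all 32851 promoter windows of 300 bases the median was 7, and 45.8% held at least as many as Sfmbt2, 21.5% as many as Cd81, 16.9% as many as Plagl1 and 33% as many as Osbpl5. The 32 imprinted genes matched to a window had a median of 15.5 and a range from 2 to 45. CG reads the same on both strands. No methylation or histone data were used here, and the counts describe these sequences only.

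In the Prader-Willi region, a cluster expressed from the paternal copy, only Ndn could be tested. Ndn, which encodes a growth-suppressing protein of the MAGE family, had 1818, 1548 and 1858 without tamoxifen and 1677, 1702 and 1950 with it, on 15, 15 and 9 untreated and 10, 8 and 28 tamoxifen reads. The groups overlapped, with a log2 fold change of 0.03 (-0.29 to 0.35). The ubiquitin ligase gene Mkrn3 had 9, 12 and 3 untreated and 4, 3 and 4 tamoxifen reads and Peg12 had 0, 3 and 1 untreated and 2, 2 and 3 tamoxifen reads. On scaled reads Mkrn3 was 7.59, 8.13 and 6.14 against 4.49, 3.73 and 2.44, with every tamoxifen library below the untreated ones on these few reads. Mkrn3 was not tested. The deposited values of Peg12 reached 2615 on 2 reads, so a deposited value does not show how many reads lie behind it.

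In the Peg3 domain, the zinc finger gene Peg3 had 4477, 2959 and 2831 without tamoxifen and 4184, 4476 and 4185 with it. The 3 tamoxifen values were close together, inside the wider untreated range. The log2 fold change was 0.35 (95% interval -0.08 to 0.79, limma adjusted p 0.509). Usp29, a deubiquitinase gene that starts next to Peg3 in the opposite direction, stood at 0.15 (-0.99 to 1.29), and Zim1, another zinc finger gene, had 1, 4 and 1 untreated and 3, 0 and 7 tamoxifen reads.

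In the Sgce domain on chromosome 6, Sgce, a sarcoglycan gene, had 68.8, 59.1 and 78.1 without tamoxifen and 29.8, 39.6 and 68.9 with it, with a log2 fold change of -0.64 (-1.69 to 0.41). Ppp1r9a, the gene of the actin-binding protein neurabin, had 2355, 1227 and 1216 without tamoxifen and 1139, 1616 and 1431 with it, where untreated replicate 1 was the highest library and the groups overlapped (-0.14, -0.78 to 0.51). Asb4 had 1, 1 and 0 untreated and 3, 1 and 5 tamoxifen reads and the calcitonin receptor gene Calcr had 1, 1 and 1 untreated and 4, 1 and 4 tamoxifen reads. These last genes rest on at most 5 reads in a library.

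A further group held retrotransposed genes and their hosts, with Impact and Nnat placed beside them. In it Commd1, a gene of copper metabolism, was the 1 gene on the lower side at an unadjusted p under 0.05. It had 1013, 1304 and 1187 without tamoxifen and 1032, 720 and 857 with it, and the groups overlapped. The log2 fold change was -0.43 ± 0.18 (SE; 95% interval -0.86 to -0.01; limma adjusted p 0.404), but only -0.14 on scaled reads. Zrsr1, which lies inside Commd1 on the opposite strand, had 1, 1 and 2 untreated and 1, 1 and 0 tamoxifen reads, and its deposited values, 187, 231 and 474 without tamoxifen and 151, 134 and 0 with it, were lower without overlap on these few reads. Impact, which helps keep translation going when amino acids run short, had 964, 759 and 495 without tamoxifen and 856, 963 and 662 with it, with a log2 fold change of 0.20 (-0.43 to 0.82). Mcts2 had 0, 1 and 1 untreated and 3, 2 and 0 tamoxifen reads and Nnat, a small membrane protein gene, had 2, 1 and 4 untreated and 1, 4 and 4 tamoxifen reads. Mcts2 and Zrsr1 are copies of other genes, and reads shared with those could have been counted either way. Exons of Commd1 overlap those of Zrsr1 and of the same-strand gene Gm28048, so reads there are also ambiguous.

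Of the remaining genes, Gnas, which encodes the stimulatory G protein alpha subunit, had 3338, 1772 and 2705 without tamoxifen and 1616, 1246 and 2375 with it. The groups overlapped, and the log2 fold change was -0.58 (-1.27 to 0.11, limma adjusted p 0.492), with -0.49 on scaled reads. The count joins transcripts from several Gnas promoters that are imprinted differently. Mest, a hydrolase-like gene, stood at 0.18 (-0.24 to 0.61). The matrix gene Dcn had 1, 1 and 0 untreated and 0, 1 and 0 tamoxifen reads, at most 1 in any library. Exons of Gnas overlap those of Nespas, Mest those of Copg2 and Kcnq1 those of Kcnq1ot1. Those of Usp29 overlap Zim3 and, on the same strand, Gm27675. Reads of either gene could enter these values.

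Fold changes were also set out by the parental copy that is known to be expressed, a grouping made after the values were seen and so given without a test. The copy was assigned from what is known of each gene, and which copy these stem cells express was not measured. On deposited values 11 of 13 paternally expressed genes lay above 0 with a median of 0.20, and 3 of 12 maternally expressed genes did, with a median of -0.11. Of all genes tested, 48.3% lay above 0 on that scale. On scaled reads the counts were 10 of 13 and 7 of 12, with medians of 0.22 and 0.02. The 95% intervals of all but 7 of the 26 genes include 0. Gnas was left out because its copy depends on the promoter.

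**Figure D5:**
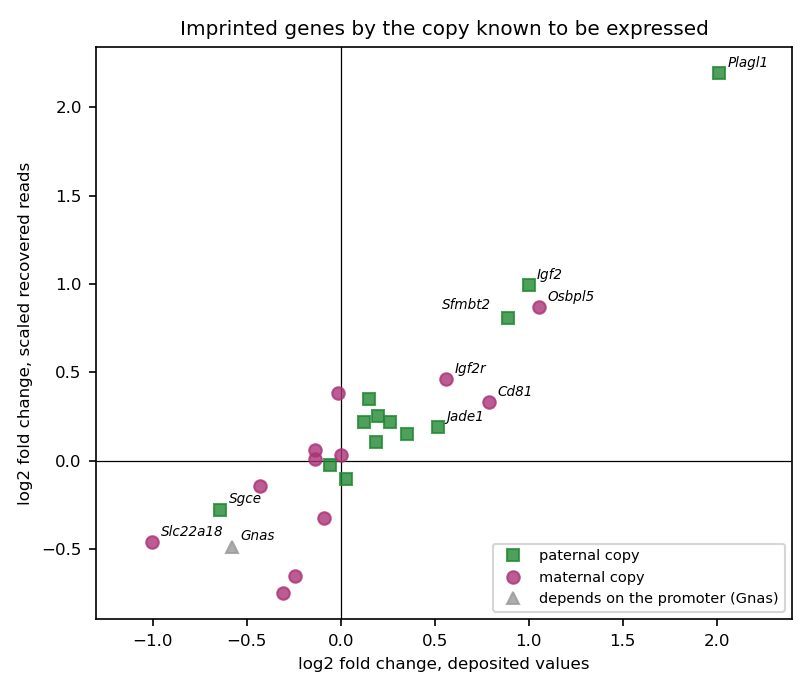
Log2 fold changes of the 26 tested imprinted genes on deposited values (x axis) and on scaled recovered reads (y axis), marked by the parental copy known to be expressed. Paternally expressed genes lie above 0 on the x axis in 11 of 13 cases and maternally expressed ones in 3 of 12. Of all genes tested, 48.3% lie above 0 on deposited values.

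Other imprinted genes were likewise without a call. Of 30 further imprinted coding genes 28 were in the table and 16 were tested, of which limma called 0, with 4 above 0 and 12 below (median -0.15). Over all genes tested, limma called 0.127%, and 48.3% lay above 0. Groups did not overlap in 9.49% of all genes on the higher side and 8.89% on the lower. Atp10a, a lipid flippase gene, was the 1 gene without overlap, at 215, 224 and 233 without tamoxifen and 97.9, 39.6 and 117 with it. Its log2 fold change was -1.53 ± 0.42 (SE; limma adjusted p 0.234), and -0.72 on scaled reads. Zdbf2, a gene expressed from the paternal copy, stood at 0.56. The 9 imprinted noncoding RNAs listed, H19 and Meg3 among them, were not matched by identifier and were not analysed here.

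All 18 listed factors that keep imprints passed the filter and were tested, and limma called 0, with 10 above 0 and 8 below and a median of 0.01. At an unadjusted p under 0.05 there were 0 higher and 3 lower, against 6.85% and 5.12% of all genes. They were Arid4a (-0.90), Arid4b (-0.40) and Smchd1 (-0.44), which stood at -0.42, -0.03 and -0.17 on scaled reads. Dnmt3a, a DNA methyltransferase gene, stood at -0.47. Zfp57, whose protein binds methylated imprinting control regions, had 6072, 5528 and 5526 without tamoxifen and 5527, 5342 and 7026 with it.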

How the data were processed

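The deposited table gives, per the file headers, 1 normalized signal per Ensembl gene and library. Per the submitters' processing notes, mm9 was the build and DESeq2, TopHat2 and bedtools were among the tools, with no versions. The annotation, strand setting and counting rule are not given in the sources used here. Columns were matched to libraries by genotype and replicate number. Every value above 0 (100305) had the form 9.73 × k × (m + 0.1) / (k + 0.1) with whole k and m, and k was taken as the recovered reads. The solution was unique for 98.8% of the values. The sorted m differed between libraries by at most 4.

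The comparison used limma 3.58.1 (expression trend, Benjamini-Hochberg adjustment) in R 4.3.3 on log2(value + 1), for genes with at least 10 recovered reads per library on average. Scaled reads are recovered reads divided by each library's median ratio to the geometric mean over genes, tested with a prior of 0.5 reads. Both steps were tested on simulated data. There limma missed most 2-fold changes and some of its calls were false, so a gene without a call may still differ. Symbols, exon lengths and coordinates came from GENCODE vM21 on GRCm38 by identifier, for 20273 genes. Python 3.11.15, numpy 2.4.6, pandas 2.3.3 and matplotlib 3.10.9 were used otherwise.

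The members, lists and tests were chosen with earlier results of these data known. All 40 members are named, and of the other lists any called gene and up to 4 of smallest p, with 4 added after their values were seen (Zfp57, Nanog, Tfcp2l1 and Zfp42). Alternatives were another pseudocount, other filters, other scalings, recovered reads, a replicate block and leaving out each library.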

Additional observations from a re-analysis of the deposited data

How the results depend on the processing

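Of the 26 tested genes, 0 were called in the 7 other settings that kept all libraries and in the 6 fits without 1 library, and no further member was called where the filter on reads was dropped. The counts over all genes (13 higher, 2 lower) were less stable. They were 5 and 0 with a pseudocount of 10, 22 and 12 with a filter on the mean value (10) in place of reads, 35 and 17 with no filter, and 5 and 0 on scaled reads. RPM gave 13 and 0. Leaving out 1 library gave 0 to 1 higher and 0 to 1 lower. With the replicate number as a block the counts were 0 and 0. Same-numbered libraries did not deviate together (correlations of -0.01, -0.04 and 0.01), and each untreated library correlated best with a tamoxifen library of another number. All these correlations were small (-0.0783 to 0.0843) and came from deviations around means of 3 libraries. They cannot decide whether the numbers pair the libraries. The block changed no call of an imprinted gene.

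The median of the imprinted genes was 0.08. It was 0.18 with that filter on the mean value and 0.17 with no filter, where sparse genes enter, 0.40 on RPM, and -0.0076 to 0.15 with 1 library left out, the lowest without tamoxifen replicate 3. RPM moved the median of all genes to 0.25, so fold changes on that scale are read relative to it. On RPM the genes Commd1 (0.13) and Gab1 (0.25) were above 0 but still below that median, and Grb10 (0.30), Kcnq1 (0.28), Ppp1r9a (0.33) and Slc22a3 (0.66) were above it. On scaled reads the signs of Grb10 (0.0305), Kcnq1 (0.0124), Ndn (-0.10), Ppp1r9a (0.0590) and Slc22a3 (0.38) turned, and Grb10 was 0.0101 on rescaled values. With 1 library left out the sign turned for Gab1 (-0.11 to 0.0199), Grb10 (-0.14 to 0.16), Impact (-0.0656 to 0.41), Kcnq1 (-0.35 to 0.0417), Nap1l4 (-0.24 to 0.0328), Ndn (-0.0526 to 0.0793), Ppp1r9a (-0.30 to 0.18), Slc22a3 (-0.62 to 0.29), Smoc1 (-0.0579 to 0.21) and Usp29 (-0.0901 to 0.62). The cause was not tested. None of these genes was called in any setting. Depth limits the 13 genes under 10 reads on average to a list of reads.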
